A study of Arabidopsis thaliana with 63 samples.

Results

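The transcripts described here are those of 45 nuclear genes of the photosynthetic apparatus, among 29961 genes and transposons counted in the RNA-seq tables of this series. The members were listed by gene identifier, and that list was chosen with earlier results of these data known. They are 14 LHCB and 6 LHCA genes for light-harvesting proteins, 12 and 9 nuclear genes for subunits of photosystem I and photosystem II, and the 4 RBCS genes for the small subunit of Rubisco. RNA-seq was made in 3 genotypes of Arabidopsis thaliana in the Col-0 background, h2a.w-1, h2a.w-2 and WT, with 3 libraries each, from 10-day-old seedlings grown in long days, from total RNA depleted of ribosomal RNA. Both mutants were triple mutants for the genes HTA6, HTA7 and HTA12, which encode H2A.W, the histone H2A variant of heterochromatin. They shared the T-DNA alleles of HTA7 and HTA12. In h2a.w-1 the HTA6 allele was hta6-1, a T-DNA insertion described as carrying a rearrangement of chromosome 1 with raised dosage of part of that chromosome, and these plants are described as having developmental defects. In h2a.w-2 it was hta6-2, a frameshift made by CRISPR-Cas9. Loss of H2A.W and the chromosome 1 rearrangement cannot be told apart in h2a.w-1 against WT, whereas h2a.w-2 lacks that rearrangement. The question was whether either mutant differed from WT, and the mutants from each other, in the transcripts of these genes. These transcripts took up several percent of the counted reads.

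Photosynthesis starts in antenna proteins that bind chlorophyll and pass light energy to 2 photosystems. Photosystem II, with its oxygen-evolving complex, takes electrons from water, and photosystem I passes them on to ferredoxin, after which Rubisco fixes carbon dioxide in the Calvin cycle. The core of each photosystem and the large subunit of Rubisco are encoded in the plastid, while the antenna proteins, many peripheral subunits and the small subunit of Rubisco are encoded in the nucleus and imported. In seedlings these nuclear genes are known as a group that light and chloroplast development switch on together, among others through the GLK transcription factors.

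Several members are near copies of each other, so how well reads can be assigned to one copy bears on their values. LHCB1.1, LHCB1.2 and LHCB1.3, which encode the most abundant antenna protein of photosystem II, lie side by side on chromosome 1, and their coding sequences of 804 bases are 95.6% to 96.4% identical. Bases 25 to 84 of these coding sequences are shown because this stretch has 8 of the 47 columns at which the copies differ, and these columns are in capitals. The sequences are from RefSeq on the TAIR10.1 assembly, at chr1:10475809-10475868 (minus strand), chr1:10473163-10473222 (minus strand) and chr1:10478095-10478154 (plus strand).
LHCB1.1: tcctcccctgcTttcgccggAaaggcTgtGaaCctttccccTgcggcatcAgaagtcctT
LHCB1.2: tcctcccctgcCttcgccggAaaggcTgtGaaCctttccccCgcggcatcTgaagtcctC
LHCB1.3: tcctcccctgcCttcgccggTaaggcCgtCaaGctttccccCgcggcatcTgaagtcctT
The closest pair among the RBCS genes is RBCS1B and RBCS2B on chromosome 5, with 97.3% identity over 546 coding bases. Bases 16 to 75 of both, at chr5:15385081-15385140 and chr5:15381904-15381963 (minus strand), hold 4 of their 15 differing columns, again in capitals.
RBCS1B: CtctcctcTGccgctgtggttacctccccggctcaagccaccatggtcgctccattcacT
RBCS2B: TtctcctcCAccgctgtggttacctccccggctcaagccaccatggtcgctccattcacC
In windows of 75 bases, the length of 1 read, 20.5% of the exonic windows of LHCB2.2, 16.2% of LHCB2.1, 14.1% of RBCS3B and 10.4% of LHCB1.1 occurred more than once in the genome. The share was 9.33% in RBCS1B, 9.27% in LHCB1.5, 7.53% in LHCB1.3, 7.27% in LHCB1.4, 5.33% in RBCS2B, 3.66% in LHCB1.2 and 2.88% in LHCA2, and 0 in the other 34 members. Reads that fit several places were discarded by the authors, so the levels of these 11 genes may be low, by an amount that was not measured. Both mates of a pair were sequenced, which leaves fewer pairs without a unique place than these shares of single reads.

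The 250 bases before the outer end of each annotated gene were searched on both strands for the I-box (GATAAG) and the G-box (CACGTG), elements known from light-regulated promoters. Where transcription starts inside the annotated gene, the sequence next to that start was not searched. The I-box was present in 10 of 45 members (22.2%) and in 12.4% of 23797 genes. The G-box was present in 9 members (20%), against 7.09% of all genes. The evening element (AAATATCT), known from clock-regulated promoters, was present in 1 member (2.22%), against 4.89% of all genes. RBCS2B held the most matches, 3 I-boxes and 1 G-box, in capitals in its upstream sequence at chr5:15382072-15382321 (minus strand).
RBCS2B upstream: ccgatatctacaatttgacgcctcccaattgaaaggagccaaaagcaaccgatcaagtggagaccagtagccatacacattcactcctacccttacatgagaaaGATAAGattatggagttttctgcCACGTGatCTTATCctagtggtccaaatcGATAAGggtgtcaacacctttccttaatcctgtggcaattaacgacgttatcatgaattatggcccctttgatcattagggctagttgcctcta
A match of these letters does not show that a factor binds there.

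The deposited tables hold mean normalized counts per genotype, from which the whole reads of each library were recovered for 29955 of 29961 features. Between 6381450 and 10506060 reads were recovered in a library. Libraries are named A, B and C within a genotype by decreasing size factor, and values below are always given in that order. A normalized count is the reads of a library divided by its size factor, computed over all 9 libraries. Replicates of each genotype differed beyond sampling noise, and none was a repeat of another. HTA6 had 55.8, 51.4 and 48.0 normalized counts in h2a.w-1 libraries, 280, 261 and 195 in the h2a.w-2-labelled libraries, and 790, 771 and 921 in WT libraries. HTA7 had at most 99.7 in any mutant library and at least 649 in any WT library. HTA12 was low in all mutant libraries but one: the library B labelled h2a.w-2 had 102 normalized counts, beside 25.1 and 24.3 in libraries A and C and 80.7 to 106 in WT. This library goes against its label for HTA12, so results for h2a.w-2 are also given without it. According to the study, seedlings of a genotype were picked at random to make up each replicate, so p-values measure the spread between such groups of seedlings. Whether genotypes or replicates shared trays is not stated in the sources used here. The batch in which each library was made is not given in the sources used here, and batch and genotype cannot be told apart.

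The members were abundant and spanned a wide range of levels. Per kilobase of exon, the authors' mean in WT, in the table that holds h2a.w-1, was 33935 normalized counts for LHCB1.3, 27579 for LHCB1.5, 16644 for RBCS1A and 12808 for PSBR. At the other end were PSAH1 at 777, LHCA5 at 431, LHCB2.3 at 340, LHCA6 at 328 and LHCB4.3 at 133. The reads of 43 members were recovered in all 9 libraries. LHCB1.3 and LHCB1.5, the members of highest level, were not recovered in either mutant and were left out of every test. The lowest member, LHCB4.3, had 80 to 319 reads per library, and every other tested member had at least 211.

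Together the 43 members took a larger share of reads in h2a.w-1 than in WT. Their share was 4.99%, 4.99% and 4.73% in h2a.w-1 libraries, 2.63%, 2.92% and 3.11% in the h2a.w-2-labelled libraries, and 3.46%, 3.01% and 3.19% in WT libraries. The totals leave out features whose reads were not recovered, 4 in h2a.w-1, 6 in h2a.w-2 and 0 in WT. LHCB1.3 and LHCB1.5 thus count in the WT totals alone. The mean was 4.91% ± 0.150 in h2a.w-1, 2.88% ± 0.243 in the h2a.w-2-labelled libraries and 3.22% ± 0.227 in WT (SD, n = 3 each). All h2a.w-1 libraries lay above all others, while the h2a.w-2-labelled libraries and the WT libraries overlapped. Over all 45 members, the authors' means summed to 525472 normalized counts in h2a.w-1 against 358163 in WT, and to 317388 in h2a.w-2 against 342889 in WT. In bulk seedlings, fewer cells of a type and less RNA per cell cannot be told apart.

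**Figure D1:**
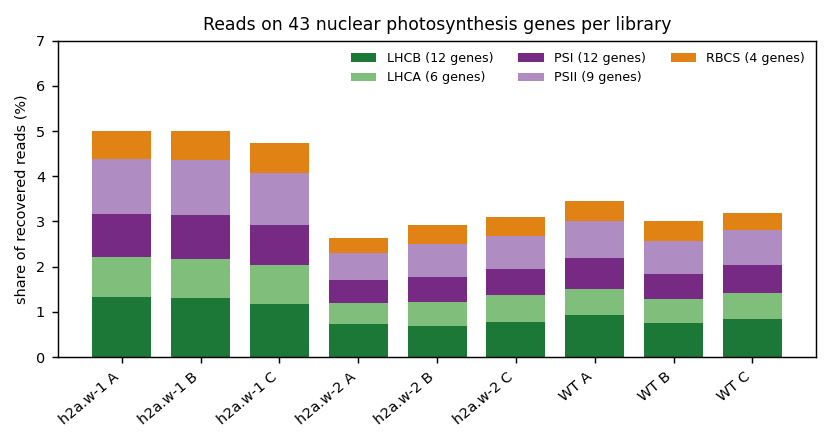
Share of recovered reads on 43 nuclear photosynthesis genes (y axis, percent) in each library (x axis), stacked by class. The h2a.w-1 libraries reach 4.73% to 4.99%, the h2a.w-2-labelled libraries reach 2.63% to 3.11% and the WT libraries 3.01% to 3.46%.

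In h2a.w-1 against WT, nearly all members were higher. Of 43 members tested, 41 rose at an adjusted p under 0.05 and none fell, whereas 10.2% of all 19757 features tested rose and 8.32% fell. The tests were made with limma voom on recovered reads, with p-values adjusted by the Benjamini-Hochberg method over all features tested. Among features at least as abundant as the lowest member, LHCB4.3, 14.3% rose, but most members were far more abundant than that limit. The median log2 fold change of the members was 0.63, against -0.01 over all features, and the range was -0.15 to 1.23. In 42 members all 3 h2a.w-1 libraries lay above all WT libraries, as did 20.4% of all features. A call also required a log2 fold change above 1, which 3 members passed, LHCA6, LHCB2.3 and PSBO2. Of all features, 1.67% were called higher. The number called was 1 without WT library B and 1 without WT library C, and LHCA6 stayed called without any single library. The number of members that rose stayed between 29 and 42 when each library was left out in turn. The reads of 18 abundant members in h2a.w-1 were recovered only under a limit on the spread between libraries. A wider spread would have been missed, so the SE of these members may be too small. For such a member in h2a.w-1, up to 0.177 combinations were expected to fit by chance. Of the 25 tested without that limit, 23 rose.

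In the h2a.w-2-labelled libraries against WT, no member passed the test, by limma voom. None was called, against 0.0406% of all features. Of all 19702 features, 0.0254% rose and 0.0203% fell, so few features of any kind passed in this comparison. With DESeq2 and the same thresholds, the study reports more changed genes in h2a.w-2 than were called here. A member that did not pass is therefore not shown to be unchanged. At an unadjusted p under 0.05, 3 members and 11.6% of all features passed. The median log2 fold change of the members was -0.18, against 0.00 over all features. It was -0.07 without library A labelled h2a.w-2, -0.11 without WT library A and -0.18 without library B labelled h2a.w-2, and stayed below 0 when any library was left out. In 40 members the log2 fold change was below 0, as in 49.6% of all features. The libraries did not overlap with WT in 5 members, LHCB1.1, LHCB1.2, PSAD2, PSAH2 and PSBP1, which were lower in all libraries, as were 10.3% of all features.

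In the h2a.w-2-labelled libraries against h2a.w-1, 39 of 43 members were lower at an adjusted p under 0.05, as were 7.16% of all 19650 features, and none was higher, against 7.76% of all features. Among features at least as abundant as the lowest member, LHCB4.3, 9.43% were lower, but most members were far more abundant than that limit. The median log2 fold change was -0.76, against -0.00 over all features. In 41 members all h2a.w-2-labelled libraries lay below all h2a.w-1 libraries, as did 18.6% of all features. Called lower were 6 members, LHCA6, LHCB1.1, PSBO2, LHCB2.3, PSAD2 and PSAH2, against 1.88% of all features. The other members that passed lay between -0.97 (PSBP1) and -0.54 (PSAE2). The number that passed depended on single libraries. It was 12 without h2a.w-1 library A, 13 without h2a.w-1 library B, and 32 without library B labelled h2a.w-2. The number called was 10 without h2a.w-1 library C, and LHCA6, LHCB1.1 and LHCB2.3 were called without any single library. The comparisons of each mutant with WT share the WT libraries, so their values stand side by side here and are not set against each other.

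**Figure D2:**
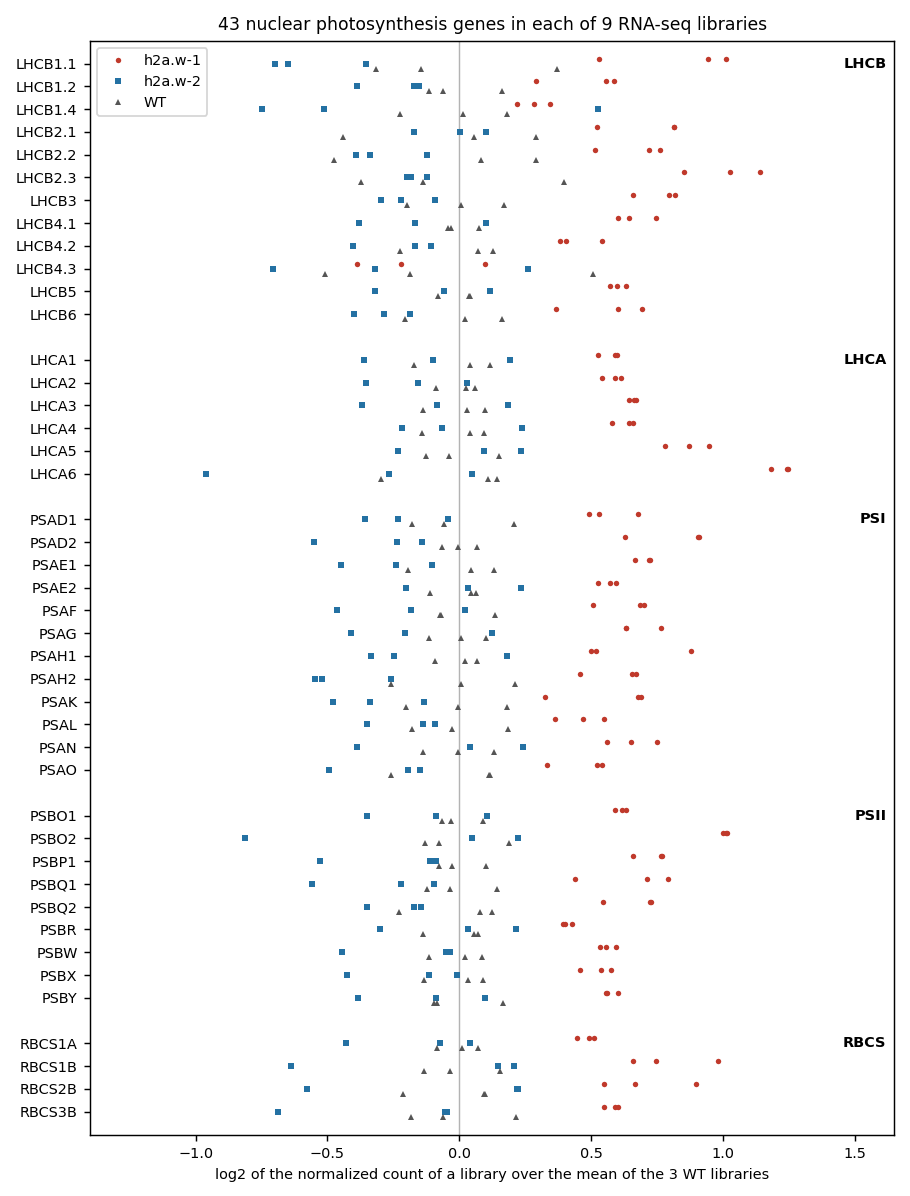
Normalized count of each tested member (y axis, by class) in each library as its log2 ratio to the mean of the WT libraries (x axis), with 1 point per library in red for h2a.w-1, blue for h2a.w-2 and grey for WT. In 42 of 43 members all h2a.w-1 points lie to the right of all WT points, and in 5 members all h2a.w-2 points lie to the left of them.

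**Figure D3:**
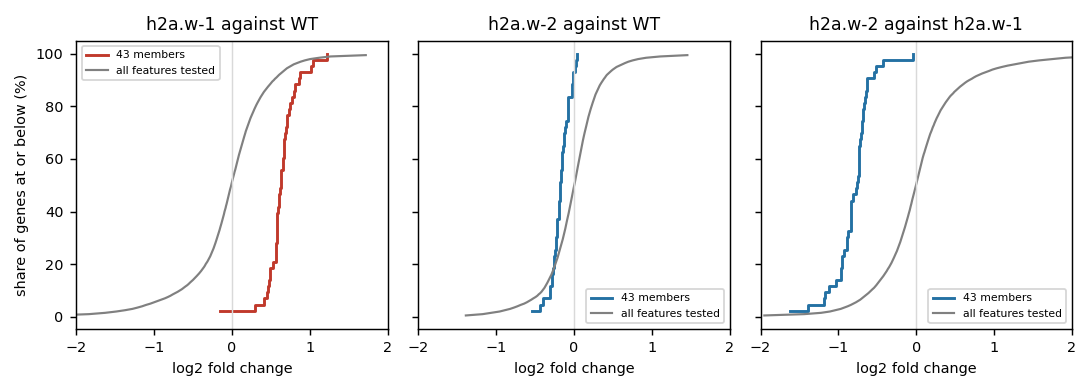
Cumulative share of genes in percent (y axis) by log2 fold change (x axis) in each comparison, for the members and for all features tested. The members' median lies at 0.63 in h2a.w-1 against WT, at -0.18 in h2a.w-2 against WT and at -0.76 in h2a.w-2 against h2a.w-1, while the median of all features lies at -0.01, 0.00 and -0.00.

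The LHCB1 genes encode the main protein of the trimeric antenna of photosystem II. Changes of single genes are log2 fold changes, and those between the mutants are of h2a.w-2-labelled libraries against h2a.w-1. LHCB1.1 (AT1G29920, chr1:10474656-10475969, minus strand) had 7633, 7280.4 and 5472 normalized counts in h2a.w-1 libraries, 2964, 2333 and 2415 in the h2a.w-2-labelled libraries, and 4897, 3041 and 3422 in WT libraries. LHCB1.1 rose in h2a.w-1 by 0.86 ± 0.20 (SE, adjusted p = 0.021) on the log2 scale, lay at -0.54 ± 0.19 (SE, adjusted p = 0.4) in the h2a.w-2-labelled libraries against WT, and was lower in them than in h2a.w-1, at -1.39 ± 0.16 (SE, adjusted p = 0.00332). Of the tested LHCB1 genes it had the largest difference between the mutants. LHCB1.2 had 19203, 18806 and 15618 normalized counts in h2a.w-1 libraries, 11490.4, 9755 and 11345 in the h2a.w-2-labelled libraries, and 14285, 12241 and 11799.7 in WT libraries. LHCB1.2 rose in h2a.w-1 by 0.49 ± 0.12 (SE, adjusted p = 0.0278), and lay at -0.23 ± 0.14 (SE, adjusted p = 0.495) in the h2a.w-2-labelled libraries against WT. LHCB1.4, on chromosome 2, had 6995, 6698 and 6417 normalized counts in h2a.w-1 libraries, 3283, 3865 and 7924 in the h2a.w-2-labelled libraries, and 6250.3, 4719 and 5560.01 in WT libraries. Its h2a.w-1 libraries lay above the WT libraries, but LHCB1.4 did not pass the test, at 0.29 ± 0.12 (SE, adjusted p = 0.122) in h2a.w-1 against WT and -0.51 ± 0.30 (SE, adjusted p = 0.298) between the mutants. LHCB1.3 had an authors' mean of 51469 normalized counts in h2a.w-1 against 41740 in WT, a log2 ratio of 0.30, and 38361 in h2a.w-2 against 39971 in WT, a log2 ratio of -0.06. LHCB1.5 had an authors' mean of 37043 normalized counts in h2a.w-1 against 28820 in WT (log2 ratio 0.36), and 31975 in h2a.w-2 against 27612 in WT (log2 ratio 0.21). These authors' means carry no spread, so no test stands behind the ratios of LHCB1.3 and LHCB1.5. Of the summed level of the LHCB1 genes per kilobase, LHCB1.1 made up 5.19% in h2a.w-1, 2.53% in h2a.w-2 and 3.74% in WT.

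LHCB2 proteins are among the antenna subunits that are phosphorylated when light energy is shifted between the photosystems. LHCB2.1 had 5031, 5026 and 4105 normalized counts in h2a.w-1 libraries, 2864, 2542 and 3069 in the h2a.w-2-labelled libraries, and 3501, 2109 and 2975 in WT libraries, and rose in h2a.w-1 by 0.75 ± 0.18 (SE, adjusted p = 0.0271). LHCB2.2 had 4717, 4853 and 4086 normalized counts in h2a.w-1 libraries, 2630.4, 2264 and 2182 in the h2a.w-2-labelled libraries, and 3499.7, 2060.5 and 3029 in WT libraries, and rose by 0.70 ± 0.19 (SE, adjusted p = 0.0359). LHCB2.3 (AT3G27690, chr3:10255906-10257489, plus strand) had 1062, 983 and 870.1 normalized counts in h2a.w-1 libraries, 420.2, 425 and 442 in the h2a.w-2-labelled libraries, and 635, 373 and 438 in WT libraries. LHCB2.3, the copy of lowest level, rose by 1.04 ± 0.19 (SE, adjusted p = 0.00836), the largest change of any tested LHCB gene, and was lower in the h2a.w-2-labelled libraries than in h2a.w-1, at -1.17 ± 0.11 (SE, adjusted p = 0.00173). All h2a.w-1 libraries lay above all WT libraries in these 3 genes. LHCB2.3 overlaps AT3G27700 on the opposite strand by 595 bases, and although the library kit keeps the strand of the RNA, the sources used here do not say whether the counting used it. AT3G27700 had mean normalized counts of 636 in h2a.w-1, 662 in h2a.w-2 and 561 in WT. LHCB2.1 and LHCB2.2 are the members with the largest shares of repeated windows.

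LHCB3 is the antenna subunit that takes part in moderately bound trimers. It had 15241, 14997 and 13631 normalized counts in h2a.w-1 libraries, 7408, 7033 and 8104 in the h2a.w-2-labelled libraries, and 9712, 7526 and 8693 in WT libraries, and rose in h2a.w-1 by 0.77 ± 0.11 (SE, adjusted p = 0.00408). LHCB4.1 and LHCB4.2 encode the minor antenna protein CP29. LHCB4.1 had 11789, 11451 and 12636 normalized counts in h2a.w-1 libraries, 5794, 6712 and 8081 in the h2a.w-2-labelled libraries, and 7931, 7316 and 7366 in WT libraries, and rose by 0.67 ± 0.09 (SE, adjusted p = 0.00262). LHCB4.2 had 6511, 5839 and 5926 normalized counts in h2a.w-1 libraries, 3979.8, 3384 and 4154 in the h2a.w-2-labelled libraries, and 4892, 3829 and 4706 in WT libraries, and rose by 0.45 ± 0.11 (SE, adjusted p = 0.0291). LHCB4.3, a divergent copy of the LHCB4 family, was the only tested member with a log2 fold change below 0 in h2a.w-1 against WT, and had 161, 143 and 200.1 normalized counts in h2a.w-1 libraries, 149.9, 224 and 115 in the h2a.w-2-labelled libraries, and 265, 164 and 131 in WT libraries. Its groups overlapped, and LHCB4.3 did not pass the test, at -0.15 ± 0.25 (SE, adjusted p = 0.711) in h2a.w-1 against WT, -0.18 ± 0.31 (SE, adjusted p = 0.803) in the h2a.w-2-labelled libraries against WT and -0.04 ± 0.24 (SE, adjusted p = 0.94) between the mutants. Without WT library A, its log2 fold change in h2a.w-1 was above 0. LHCB5 encodes the minor antenna protein CP26. It had 23326, 22785 and 22385 normalized counts in h2a.w-1 libraries, 12069.5, 14450.3 and 16298 in the h2a.w-2-labelled libraries, and 15478, 14222 and 15438 in WT libraries, and rose by 0.60 ± 0.08 (SE, adjusted p = 0.00305). LHCB6 encodes CP24, which links trimers to the core. It had 13517, 12696 and 10797 normalized counts in h2a.w-1 libraries, 6346, 6859 and 7347 in the h2a.w-2-labelled libraries, and 9365, 7257 and 8492 in WT libraries, and rose by 0.56 ± 0.13 (SE, adjusted p = 0.0205). In LHCB3, LHCB4.1, LHCB4.2, LHCB5 and LHCB6, all h2a.w-1 libraries lay above all WT libraries.

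LHCA1 to LHCA4 form the antenna belt of photosystem I, and LHCA5 and LHCA6 attach the NDH complex to it. All 6 LHCA genes rose in h2a.w-1. LHCA1 had 15571, 15491 and 14815 normalized counts in h2a.w-1 libraries, 8017, 9593 and 11763 in the h2a.w-2-labelled libraries, and 11145, 9143 and 10592 in WT libraries, with a rise of 0.58 ± 0.10 (SE, adjusted p = 0.0069). LHCA2 had 15461, 14939 and 15690.4 normalized counts in h2a.w-1 libraries, 8025, 9200.4 and 10486 in the h2a.w-2-labelled libraries, and 10701, 9654 and 10449 in WT libraries, with a rise of 0.58 ± 0.08 (SE, adjusted p = 0.00372). LHCA3 had 22399, 22703 and 22832 normalized counts in h2a.w-1 libraries, 11121, 13512 and 16319.6 in the h2a.w-2-labelled libraries, and 14652, 13024 and 15361 in WT libraries, with a rise of 0.66 ± 0.09 (SE, adjusted p = 0.00306). LHCA1, LHCA2 and LHCA3 thus rose by 0.58 to 0.66, with no overlap between h2a.w-1 and WT libraries. LHCA4 had 20207, 19990.5 and 19136 normalized counts in h2a.w-1 libraries, 11018, 12232 and 15117 in the h2a.w-2-labelled libraries, and 13651, 11608 and 13162 in WT libraries, with a rise of 0.63 ± 0.09 (SE, adjusted p = 0.00405). LHCA5 had 818, 767 and 863 normalized counts in h2a.w-1 libraries, 381, 527 and 477 in the h2a.w-2-labelled libraries, and 497, 409 and 436 in WT libraries, with a rise of 0.87 ± 0.10 (SE, adjusted p = 0.00192), while its log2 fold change in the h2a.w-2-labelled libraries was 0.03 ± 0.14 (SE, adjusted p = 0.931), the highest of any LHCA gene. LHCA6 (AT1G19150, chr1:6612630-6613972, plus strand) had 838, 874 and 875 normalized counts in h2a.w-1 libraries, 189, 382 and 306 in the h2a.w-2-labelled libraries, and 408, 398 and 301 in WT libraries. LHCA6 rose by 1.23 ± 0.13 (SE, adjusted p = 0.00129), the largest change of any tested member, and lay at -0.40 ± 0.25 (SE, adjusted p = 0.511) in the h2a.w-2-labelled libraries against WT. The difference between the mutants was -1.63 ± 0.23 (SE, adjusted p = 0.00543). The reads of LHCA6 numbered at least 211 per library, and its rise held in h2a.w-1 when any library was left out, between 1.09 and 1.31 on the log2 scale.

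**Figure D4:**
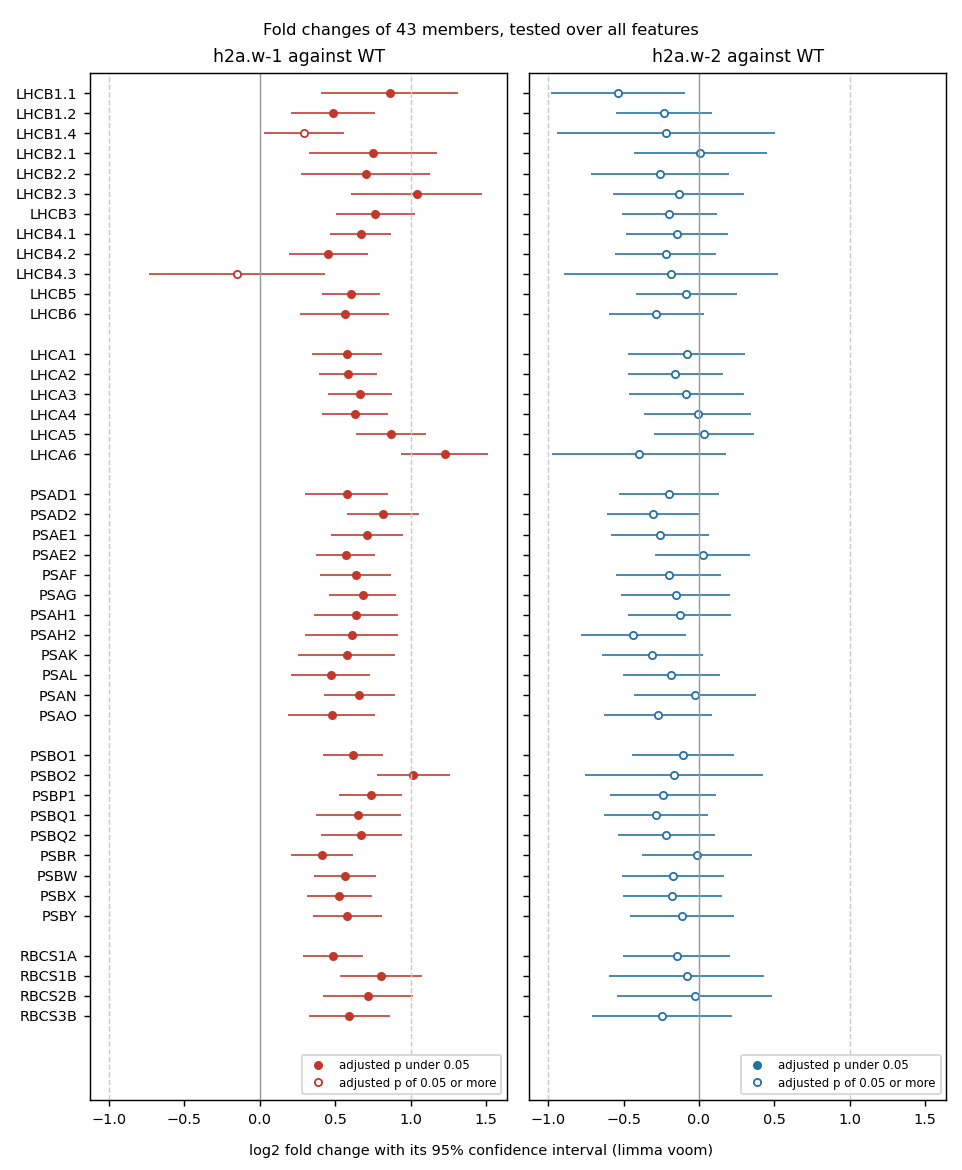
Log2 fold change (x axis) of each tested member (y axis) in h2a.w-1 and in h2a.w-2 against WT, with bars for the 95% confidence interval of limma voom and filled points at an adjusted p under 0.05. In h2a.w-1, 41 points are filled and all but LHCB4.3 lie above 0, while in h2a.w-2 no point is filled and 40 lie below 0.

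Of the nuclear photosystem I subunits, PSAD and PSAE bind ferredoxin at the stromal side. PSAD1 had 7550.1, 6810.1 and 6633 normalized counts in h2a.w-1 libraries, 3679, 4020.2 and 4582 in the h2a.w-2-labelled libraries, and 5452, 4169.7 and 4536 in WT libraries, and rose in h2a.w-1 by 0.58 ± 0.12 (SE, adjusted p = 0.0143). PSAD2 had 4045, 4053 and 3341 normalized counts in h2a.w-1 libraries, 1472, 1831 and 1958 in the h2a.w-2-labelled libraries, and 2153, 2061 and 2261 in WT libraries, and rose by 0.82 ± 0.10 (SE, adjusted p = 0.00232), the largest change of this class. PSAD2 was lower in the h2a.w-2-labelled libraries than in h2a.w-1, at -1.12 ± 0.15 (SE, adjusted p = 0.00441). PSAE1 had 7135, 7121 and 6868 normalized counts in h2a.w-1 libraries, 3172, 3664 and 4026 in the h2a.w-2-labelled libraries, and 4743, 3778 and 4458 in WT libraries, and rose by 0.71 ± 0.10 (SE, adjusted p = 0.00392). PSAE2 had 3405, 3465 and 3302 normalized counts in h2a.w-1 libraries, 1993, 2347 and 2693 in the h2a.w-2-labelled libraries, and 2362, 2119 and 2395 in WT libraries, and rose by 0.57 ± 0.09 (SE, adjusted p = 0.0043). Its log2 fold change in the h2a.w-2-labelled libraries, 0.03 ± 0.14 (SE, adjusted p = 0.943), was the highest of the class. PSAF binds plastocyanin at the lumenal side. PSAF had 9959, 9859.6 and 8699.9 normalized counts in h2a.w-1 libraries, 4448, 5399.6 and 6221 in the h2a.w-2-labelled libraries, and 6730.5, 5819.96 and 5832 in WT libraries, and rose by 0.64 ± 0.10 (SE, adjusted p = 0.00532). PSAG sits next to the antenna belt, had 6338, 6344 and 6956 normalized counts in h2a.w-1 libraries, 3079, 3548 and 4455 in the h2a.w-2-labelled libraries, and 4388, 4111 and 3777 in WT libraries, and rose by 0.68 ± 0.10 (SE, adjusted p = 0.00323). The h2a.w-1 libraries lay above all WT libraries in these 6 genes, and the h2a.w-2-labelled libraries lay below all WT libraries in PSAD2 alone among them.

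PSAH is the subunit at which the antenna of photosystem II docks. PSAH1 had 1384, 1402 and 1799 normalized counts in h2a.w-1 libraries, 776, 824 and 1109 in the h2a.w-2-labelled libraries, and 1025, 992 and 918 in WT libraries, and rose by 0.64 ± 0.12 (SE, adjusted p = 0.00963). PSAH2 had 4896, 4951 and 4267 normalized counts in h2a.w-1 libraries, 2166, 2595 and 2127 in the h2a.w-2-labelled libraries, and 3602, 2598 and 3126 in WT libraries, and rose by 0.61 ± 0.13 (SE, adjusted p = 0.0175). In PSAH2 the h2a.w-2-labelled libraries lay below all WT libraries, at -0.43 ± 0.15 (SE, adjusted p = 0.395), the lowest value of the class, and below h2a.w-1, at -1.04 ± 0.13 (SE, adjusted p = 0.00386). PSAK sits at the antenna side of the core. PSAK had 8213, 8278 and 6436 normalized counts in h2a.w-1 libraries, 3678, 4682 and 4061 in the h2a.w-2-labelled libraries, and 5815, 4462 and 5117 in WT libraries, and rose by 0.57 ± 0.14 (SE, adjusted p = 0.0252). PSAL lies next to PSAH and had 11192, 10580.3 and 9829.5 normalized counts in h2a.w-1 libraries, 6001, 6958 and 7176 in the h2a.w-2-labelled libraries, and 8687, 6749.8 and 7512 in WT libraries, and rose by 0.47 ± 0.11 (SE, adjusted p = 0.0266), the smallest change of the class. PSAN lies in the lumen near plastocyanin. PSAN had 8344, 8930.4 and 7821 normalized counts in h2a.w-1 libraries, 4053, 5465 and 6283 in the h2a.w-2-labelled libraries, and 5808, 4828 and 5289 in WT libraries, and rose by 0.66 ± 0.10 (SE, adjusted p = 0.00472). PSAO lies beside PSAL and PSAH. PSAO had 11021, 11139 and 9645 normalized counts in h2a.w-1 libraries, 5443, 6914 and 6702 in the h2a.w-2-labelled libraries, and 8281, 6409.6 and 8304 in WT libraries, and rose by 0.48 ± 0.13 (SE, adjusted p = 0.0342). All 12 photosystem I genes were lower in the h2a.w-2-labelled libraries than in h2a.w-1, between -1.12 and -0.54.

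PSBO, PSBP and PSBQ form the extrinsic part of the oxygen-evolving complex of photosystem II. PSBO1 had 22496, 21861 and 22299 normalized counts in h2a.w-1 libraries, 11395, 13663 and 15614 in the h2a.w-2-labelled libraries, and 15465, 13877 and 14225 in WT libraries, and rose in h2a.w-1 by 0.62 ± 0.09 (SE, adjusted p = 0.00315). PSBO2 (AT3G50820, chr3:18890874-18892508, minus strand) had 6129.9, 6155 and 6089.6 normalized counts in h2a.w-1 libraries, 1734, 3145 and 3555 in the h2a.w-2-labelled libraries, and 3469, 2778 and 2883 in WT libraries. PSBO2 rose by 1.02 ± 0.11 (SE, adjusted p = 0.00137), the largest change of the class, and lay at -1.18 ± 0.25 (SE, adjusted p = 0.0199) between the mutants. Of the summed PSBO level per kilobase, PSBO2 made up 23.9% in h2a.w-1, 19.1% in h2a.w-2 and 19.2% in WT. PSBP1 had 21052, 21034 and 19516 normalized counts in h2a.w-1 libraries, 8587, 11453 and 11633 in the h2a.w-2-labelled libraries, and 13261, 11719 and 12129.7 in WT libraries, and rose by 0.73 ± 0.09 (SE, adjusted p = 0.00219). PSBQ1 had 7036, 6652 and 5501 normalized counts in h2a.w-1 libraries, 2754, 3804 and 3489 in the h2a.w-2-labelled libraries, and 4488, 3963 and 3733 in WT libraries, and rose by 0.65 ± 0.12 (SE, adjusted p = 0.00971). Its log2 fold change in the h2a.w-2-labelled libraries, -0.28 ± 0.15 (SE, adjusted p = 0.461), was the lowest of the class. PSBQ2 had 13208, 13147 and 11620.00 normalized counts in h2a.w-1 libraries, 6251, 7072 and 7212 in the h2a.w-2-labelled libraries, and 8699.6, 6809 and 8412 in WT libraries, and rose by 0.67 ± 0.12 (SE, adjusted p = 0.00719). The h2a.w-1 libraries lay above all WT libraries in each of these 5 genes.

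The remaining photosystem II members are small subunits of the core. PSBR, which helps PSBP bind, had 12861, 12785 and 13089 normalized counts in h2a.w-1 libraries, 7904, 9945 and 11283 in the h2a.w-2-labelled libraries, and 10116, 8853 and 10228 in WT libraries. PSBR rose in h2a.w-1 by 0.41 ± 0.09 (SE, adjusted p = 0.0175), the smallest change of the class, and did not pass the test between the mutants, at -0.42 ± 0.15 (SE, adjusted p = 0.0998). PSBW, which stabilises complexes of the core with its antenna, had 11917, 12241 and 11731 normalized counts in h2a.w-1 libraries, 5965, 7826 and 7914 in the h2a.w-2-labelled libraries, and 8614, 7484 and 8228 in WT libraries, and rose by 0.57 ± 0.09 (SE, adjusted p = 0.00488). PSBX had 7056, 7449.9 and 7650.2 normalized counts in h2a.w-1 libraries, 3824, 4751 and 5106 in the h2a.w-2-labelled libraries, and 5475, 4685 and 5255 in WT libraries, and rose by 0.53 ± 0.09 (SE, adjusted p = 0.00768). PSBY had 3481, 3386 and 3373 normalized counts in h2a.w-1 libraries, 1759.6, 2159.9 and 2457 in the h2a.w-2-labelled libraries, and 2573, 2167 and 2148 in WT libraries, and rose by 0.58 ± 0.10 (SE, adjusted p = 0.00657). PSBX and PSBY are small membrane-spanning subunits, and like PSBR and PSBW their h2a.w-1 libraries did not overlap with WT.

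The 4 RBCS genes encode the small subunit of Rubisco, the enzyme that fixes carbon dioxide. RBCS1A, the main copy, had 27889.8, 28733 and 29150.1 normalized counts in h2a.w-1 libraries, 15182, 19433 and 21052 in the h2a.w-2-labelled libraries, and 21496, 20571 and 19279.7 in WT libraries, and rose in h2a.w-1 by 0.49 ± 0.09 (SE, adjusted p = 0.00782), the smallest change of the class. RBCS1B had 4119.8, 4373 and 5143 normalized counts in h2a.w-1 libraries, 1674, 2892 and 3013 in the h2a.w-2-labelled libraries, and 2547, 2901 and 2379 in WT libraries, and rose by 0.80 ± 0.12 (SE, adjusted p = 0.00396), the largest. RBCS2B had 6096, 6621 and 7759 normalized counts in h2a.w-1 libraries, 2795, 4859.7 and 4854 in the h2a.w-2-labelled libraries, and 4449, 4453 and 3598 in WT libraries, and rose by 0.71 ± 0.13 (SE, adjusted p = 0.00833). Between the mutants, RBCS2B did not pass the test, at -0.74 ± 0.23 (SE, adjusted p = 0.0634), although its libraries did not overlap. RBCS3B had 14024, 14408 and 14529 normalized counts in h2a.w-1 libraries, 5951, 9284 and 9232 in the h2a.w-2-labelled libraries, and 11117, 9175 and 8448 in WT libraries, and rose by 0.59 ± 0.12 (SE, adjusted p = 0.0117). Its log2 fold change in the h2a.w-2-labelled libraries, -0.25 ± 0.20 (SE, adjusted p = 0.597), was the lowest of the class. RBCS1A made up 53.2% of the summed RBCS level per kilobase in h2a.w-1, 55.8% in h2a.w-2 and 56.1% in WT.

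The h2a.w-1 plants are described as carrying extra copies of part of the right arm of chromosome 1, so each member was set beside its 100 nearest tested genes along the chromosome. The study reports raised RNA-seq coverage over that part in earlier published h2a.w-1 data, and raised CMT3 transcripts by RT-qPCR in plants with extra copies. In these h2a.w-1 libraries the neighbour medians in that part lay close to 0, unlike that report. Whether the plants of these libraries carried the raised dosage was not tested. The 100 neighbours of CMT3, a gene in the part described as duplicated, had a median log2 fold change of 0.08 in h2a.w-1 against WT, and CMT3 itself did not pass the test, at 0.23 (adjusted p = 0.178). RBCS1A and PSBY lie in the same part of the chromosome, between the transposons for which the study lists raised copy numbers, and their neighbours had medians of 0.00 and -0.04. RBCS1A rose by 0.49 and PSBY by 0.58. The neighbours of the LHCB1 cluster, elsewhere on chromosome 1, had a median of 0.00, and over all members the neighbours' medians lay between -0.10 and 0.11. The copy number of any member was not measured here, and its part in these values was not tested. In all, 16 members are overlapped by a gene on the opposite strand and 2 by one on the same strand.

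The genes that act beside the members in the chloroplast were also higher in h2a.w-1 in most cases (values are log2 fold changes ± SE). Of 17 tested Calvin cycle genes, 16 rose and none fell, with a median log2 fold change of 0.69. The largest rises were those of GAPA2 (1.01 ± 0.11, adjusted p = 0.00167) and GAPB (0.88 ± 0.11, adjusted p = 0.00214), which encode subunits of the plastid glyceraldehyde-3-phosphate dehydrogenase, the regulator CP12-2 (0.90 ± 0.12, adjusted p = 0.00273), the aldolase FBA1 (0.85 ± 0.11, adjusted p = 0.00261) and the fructose bisphosphatase CFBP1 (0.77 ± 0.10, adjusted p = 0.00292). All 13 electron carrier and ATP synthase genes rose, with a median of 0.69. They were led by PGRL1A, which acts in cyclic electron flow (1.2 ± 0.09, adjusted p = 0.000653), the ferredoxin-NADP reductases FNR2 (0.81 ± 0.08, adjusted p = 0.00124) and FNR1 (0.81 ± 0.09, adjusted p = 0.00169), ATPD (0.77 ± 0.13, adjusted p = 0.00563) and the plastocyanin gene PETE1 (0.76 ± 0.11, adjusted p = 0.00378). Of 12 photoprotection and other photosystem genes, 9 rose, with a median of 0.82. The largest rises were those of PSBP2 (1.06 ± 0.24, adjusted p = 0.0194), PPL1 (0.98 ± 0.12, adjusted p = 0.00204), PSBS, which dissipates excess light energy (0.93 ± 0.13, adjusted p = 0.00289), NPQ1 (0.89 ± 0.13, adjusted p = 0.00333) and PSB28 (0.85 ± 0.14, adjusted p = 0.00523). The share of all features that rose was 10.2%.

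Of 21 chlorophyll biosynthesis genes, 17 rose in h2a.w-1 and none fell, with a median of 0.67. Those with the largest changes were the protochlorophyllide reductases PORA (1.19 ± 0.13, adjusted p = 0.00164) and PORC (1.02 ± 0.09, adjusted p = 0.001), the divinyl reductase DVR (1.11 ± 0.19, adjusted p = 0.00649), and CHLH (1.04 ± 0.12, adjusted p = 0.00205) and CHLI1 (0.90 ± 0.12, adjusted p = 0.00285) of the magnesium chelatase. Of 13 photorespiration genes, 12 rose, with a median of 0.68, led by GLDP1 (1.06 ± 0.21, adjusted p = 0.0127), GLU1 (0.90 ± 0.13, adjusted p = 0.00323), GOX1 (0.84 ± 0.13, adjusted p = 0.00516), HPR1 (0.82 ± 0.10, adjusted p = 0.00195) and SHM1 (0.75 ± 0.10, adjusted p = 0.00273). The regulators were mixed. Of 20, 8 rose and 2 fell, against 10.2% and 8.32% of all features, with a median of 0.30. GLK1, an activator of nuclear photosynthesis genes, rose by 1.3 ± 0.10, adjusted p = 0.000653, PIF4 by 0.99 ± 0.18, adjusted p = 0.00816, the plastid sigma factors SIG6 and SIG5 by 0.71 ± 0.10, adjusted p = 0.00391 and 0.67 ± 0.19, adjusted p = 0.0457, and GNC by 0.66 ± 0.14, adjusted p = 0.0144. The 2 that fell, named here after their values were seen, were the photoreceptor PHYA (-0.48 ± 0.11, adjusted p = 0.0221) and BBX21 (-0.50 ± 0.10, adjusted p = 0.0147). Of 9 clock genes, 4 rose, with a median of 0.36, namely ELF4 (1.17 ± 0.22, adjusted p = 0.00909), GI (0.55 ± 0.13, adjusted p = 0.026), PRR5 (0.50 ± 0.10, adjusted p = 0.0111) and PRR7 (0.36 ± 0.09, adjusted p = 0.034).

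In the h2a.w-2-labelled libraries against WT, no gene of any of these lists passed the test. At an unadjusted p under 0.05 the lists held 8 of 20 regulators, 7 of 9 clock genes, 2 of 11 photoprotection genes, 1 of 21 chlorophyll biosynthesis genes and none of the other lists, against 11.6% of all features. The medians were -0.06 for Calvin cycle genes, -0.04 for electron carriers and ATP synthase, -0.06 for photoprotection, -0.07 for chlorophyll biosynthesis, 0.20 for photorespiration, 0.35 for the regulators and 0.75 for the clock genes. The highest and lowest genes were CP12-1 and PGK2 (0.46 and -0.27) in the Calvin cycle, PGR5 and PETE1 (0.35 and -0.25) among the carriers, LHCB7 and ELIP1 (0.44 and -0.38) in photoprotection, and CHLM and PORA (0.23 and -0.88) in chlorophyll biosynthesis. In photorespiration they were AGT1 and GDCH (0.58 and -0.20), among the regulators GLK2 and SIG2 (1.2 and -0.01) and among the clock genes PRR9 and LHY (1.41 and 0.10).

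Between the mutants, 9 of 16 Calvin cycle genes, 8 of 13 electron carrier and ATP synthase genes, 7 of 12 photoprotection genes, 13 of 21 chlorophyll biosynthesis genes and 4 of 13 photorespiration genes were lower in the h2a.w-2-labelled libraries, and none was higher, against 7.16% of all features lower. The medians were -0.77, -0.76, -0.80, -0.66 and -0.56. The largest differences were those of PORA (-2.06 ± 0.29, adjusted p = 0.00556), DVR (-1.37 ± 0.17, adjusted p = 0.00407), PORC (-1.29 ± 0.19, adjusted p = 0.00559), CHLH (-1.15 ± 0.11, adjusted p = 0.00201) and CHLI2 (-0.98 ± 0.15, adjusted p = 0.00727) in chlorophyll biosynthesis. In photoprotection they were those of PSBS (-1.18 ± 0.14, adjusted p = 0.00351), PSBP2 (-1.15 ± 0.25, adjusted p = 0.0208), PSBTN (-1.12 ± 0.14, adjusted p = 0.00383), PPL1 (-1.03 ± 0.16, adjusted p = 0.00745) and PSB28 (-1.02 ± 0.23, adjusted p = 0.0236). Among the carriers PGRL1A (-1.17 ± 0.20, adjusted p = 0.00956), PETE1 (-1.01 ± 0.11, adjusted p = 0.00309), FNR1 (-0.97 ± 0.19, adjusted p = 0.0144), ATPD (-0.96 ± 0.15, adjusted p = 0.00797) and PETE2 (-0.80 ± 0.16, adjusted p = 0.0154) were lower. In the Calvin cycle CP12-2 (-1.09 ± 0.26, adjusted p = 0.029), GAPA2 (-1.07 ± 0.21, adjusted p = 0.0145), GAPB (-0.90 ± 0.23, adjusted p = 0.0356), PGK1 (-0.89 ± 0.16, adjusted p = 0.011) and CFBP1 (-0.85 ± 0.20, adjusted p = 0.0249) were lower, and in photorespiration GDCH (-0.88 ± 0.16, adjusted p = 0.0116), SHM1 (-0.86 ± 0.20, adjusted p = 0.027), GLU1 (-0.82 ± 0.19, adjusted p = 0.0258) and GLDT (-0.82 ± 0.18, adjusted p = 0.0216). Of 20 regulators, 3 were higher and 3 lower. PHYA (1.05 ± 0.17, adjusted p = 0.00797), BBX21 (0.84 ± 0.17, adjusted p = 0.0159) and PIF3 (0.68 ± 0.15, adjusted p = 0.0231) were higher in the h2a.w-2-labelled libraries, and GLK1 (-0.96 ± 0.10, adjusted p = 0.00213) and SIG6 (-0.70 ± 0.12, adjusted p = 0.00985) were among those lower. No clock gene passed the test, the highest and lowest being PRR9 and ELF4 (0.64 and -0.57).

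**Figure D5:**
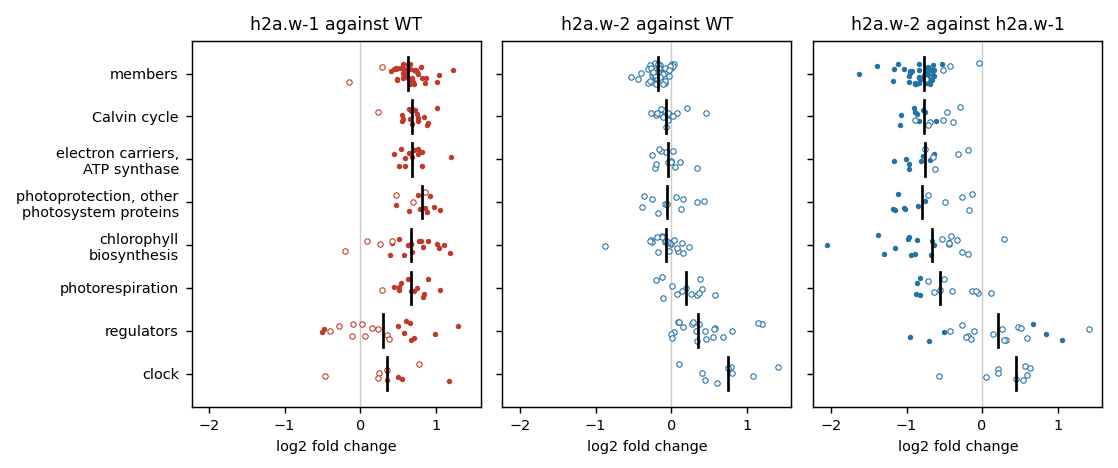
Log2 fold change (x axis) of each gene of the members and of each list (y axis) in each comparison, filled at an adjusted p under 0.05, with a black bar at the median. In h2a.w-1 against WT the medians of Calvin cycle, carrier, photoprotection, chlorophyll biosynthesis and photorespiration genes lie between 0.67 and 0.82, above the median of all features, -0.01.

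Markers of other cell types were followed in the same libraries. The summed normalized counts of 11 root markers ranged over 884 to 1428 in h2a.w-1 libraries, 1314 to 1777 in the h2a.w-2-labelled libraries and 1336 to 2705 in WT libraries. None of the 11 passed the test in h2a.w-1 against WT, where their median log2 fold change was -0.88. There, 10 of the 11 lay below 0 and 1 lay above, at 2.32. IRT1 was the only one at 0 in a library. The 3 guard cell markers summed to 504 to 580 in h2a.w-1, 422 to 535 in the h2a.w-2-labelled libraries and 368 to 426 in WT. The 5 vascular markers summed to 3069 to 3370 in h2a.w-1, 2414 to 3195 in the h2a.w-2-labelled libraries and 2686 to 2975 in WT, and their median log2 fold change in h2a.w-1 against WT was -0.05. SUC2, a phloem sucrose transporter, was the only one of them to pass in h2a.w-1 (0.36 ± 0.10, adjusted p = 0.046), with 2 of the 5 above 0 and 3 below. Between the mutants, 1 of 3 guard cell markers, KAT1, was lower in the h2a.w-2-labelled libraries (-0.53 ± 0.14, adjusted p = 0.0416), while FAMA lay at -0.00 and MYB60 at 0.25. Of the 5 vascular markers, all lay below 0 with a median of -0.28, and CESA8 passed (-0.39 ± 0.11, adjusted p = 0.0487). The shoot meristem markers STM and KNAT1 summed to 161 to 206 in h2a.w-1, 307 to 358 in the h2a.w-2-labelled libraries and 156 to 225 in WT, and both were higher in the h2a.w-2-labelled libraries than in h2a.w-1 (1.31 ± 0.16, adjusted p = 0.00368 for STM and 0.56 ± 0.15, adjusted p = 0.0388 for KNAT1). The part of these differences in the values of the members was not tested.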

How the data were processed

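RNA-seq libraries of h2a.w-1, h2a.w-2 and WT were grouped by their labels (3 each). According to the study's methods and the submitters' processing notes, reads were trimmed with Trim Galore (0.5.0), aligned to TAIR10 with STAR (2.7.0c), cleared of duplicates with Picard MarkDuplicates, counted on Araport11 with HTSeq and normalized with DESeq2. Removal of duplicates without molecular identifiers can discard distinct fragments of very abundant transcripts, which would lower their counts and fold changes. This effect was not tested.

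The deposited value is a signal, the normalized count (reads over size factor) that the authors averaged within each genotype. The tables also hold the authors' own comparisons of each mutant with WT (log2 fold changes, standard errors, Wald statistics, p-values and adjusted p-values), which were not used. Size factors differ between the 2 tables.

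Whole reads of each library were recovered by trying every combination of reads for group means up to 12000. Above that, or where several combinations fitted, each library had to lie within a factor of 1.5 of the group mean after scaling. Among abundant features recovered without this limit, 99.7% in h2a.w-1, 92.5% in h2a.w-2 and 98.0% in WT lay within it. Of the members, 25 in h2a.w-1, 37 in h2a.w-2 and 36 in WT were recovered without the limit, and 18, 6 and 9 with it. Simulated means above 12000 were made only from profiles within this limit. A single combination fitted for 29 of 30 such features in h2a.w-1, 22 of 30 in h2a.w-2 and 30 of 30 in WT. The true reads were always among those tried, so this cannot show how often a fit is wrong where the spread exceeds the limit. The precision of a value is limited by 3 libraries and by 6381450 to 10506060 reads per library.

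Reads were tested with limma voom (limma 3.58.1, R 4.3.3) in features whose mean normalized count reached 10, on the 6 libraries of each comparison, with the Benjamini-Hochberg adjustment over all features. A feature passed at an adjusted p under 0.05 and was called if its absolute log2 fold change also exceeded 1. A count model on deposited reads could not be chosen, because the deposited values are means. The alternatives were other thresholds, scalings, models, pseudocounts and filters, all 9 libraries in one fit, and leaving out each library in turn. Positions, exon lengths and sequences came from RefSeq on TAIR10.1, in which all 45 members were matched by identifier.

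Values in every library were given for members with an adjusted p under 0.05 in any comparison and for the highest and lowest member of each class in each mutant. Listed genes were named if they passed, at most 5 per list and comparison, and otherwise the highest and lowest. The members, the lists and this rule were chosen with earlier results of these data known. The 14 plastid-encoded partners of the list were not analysed here.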

Additional observations from a re-analysis of the deposited data

Results flagged for a closer look

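The mutants differed from each other, under the same contrast of H2A.W loss, in 6 members called by limma voom in the h2a.w-2-labelled libraries against h2a.w-1, out of 43 tested, against 1.88% of all features called lower. The log2 fold changes were -1.63 for LHCA6, -1.39 for LHCB1.1, -1.18 for PSBO2, -1.17 for LHCB2.3, -1.12 for PSAD2 and -1.04 for PSAH2, and in each of these genes all h2a.w-2-labelled libraries lay below all h2a.w-1 libraries. PSBO2 depended on single libraries, with a log2 fold change between -1.39 and -0.87 and an adjusted p of up to 0.082 when each library was left out in turn. The mutants are described as differing in the HTA6 allele and in a rearrangement of chromosome 1, and these cannot be told apart from the batch in which the libraries were made.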

How the results depend on the processing

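No result changed its direction under any alternative run among the counts and medians of the members. The number of members called in h2a.w-1 against WT was 3, and 41 with no fold threshold, and 1 to 4 when each library was left out. In the h2a.w-2-labelled libraries against h2a.w-1 it was 6, and 39 with no fold threshold, 4 to 10 when each library was left out, and 11 with scaling by total reads without photosynthesis genes, an alternative chosen after seeing the data. In h2a.w-2 against WT it was 0 under every alternative. The median log2 fold change of the members stayed between 0.56 and 0.69 in h2a.w-1 against WT, between -0.26 and -0.07 in h2a.w-2 against WT, and between -0.88 and -0.70 in h2a.w-2 against h2a.w-1 when each library was left out. Using only members whose reads were recovered without a limit on the spread, also chosen after seeing the data, 23 of 25 rose in h2a.w-1, and with all 9 libraries in one fit 38 of 43 rose. Over all features, the number called in h2a.w-2 against WT was 8, and 33 with no filter on low values and 38 with all 9 libraries in one fit. The cause of these differences was not tested. No paired analysis was possible because the deposited columns carry no replicate numbers. LHCB1.3 and LHCB1.5, whose reads were not recovered in the mutants, have no test under any setting.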
